A study of Homo sapiens with 2 samples.

Results

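The hedgehog pathway carries a signal from secreted ligands through the primary cilium to the GLI transcription factors. Without ligand, the receptor PTCH1 keeps the membrane protein SMO silent, and SUFU holds the GLI proteins back while GLI3 is cut into a repressor. When ligand binds PTCH1, SMO enters the cilium, and GLI2 and GLI3 are released in forms that turn on target genes, among them GLI1, PTCH1 and HHIP. This account covers 10 genes of the pathway, namely the membrane and extracellular proteins PTCH1, GAS1, HHIP and SMO, the cilium proteins KIF7 and IFT88, and the intracellular regulators SUFU, GLI1, GLI2 and GLI3. They were chosen by name, and every probe set to which the platform annotation gives exactly 1 of these symbols was taken, which yielded 26 probe sets. The array named 19775 genes in this way.

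The arrays carried RNA recovered by immunoprecipitation from 293T, a line derived from human embryonic kidney that expresses the large T antigen of SV40. The miR-941 array held the Ago2 precipitate of cells transfected with synthetic miR-941 at 30 nmol/l. The control array held the precipitate of cells transfected with a scrambled oligo at 30 nmol/l. Ago2 is the Argonaute protein that holds microRNAs on the mRNAs they pair with, so the comparison asks which mRNAs are recovered with it when miR-941 is in excess. The control's title calls it an Ago2 precipitate and its description a mock transfection, while its antibody entry names nonimmune IgG beads. Should the antibody entry be right, effects of the oligo and of the antibody cannot be told apart. There was 1 array per group, so no difference below has a replicate check or a p-value. No input RNA was analysed here, so more recovery with Ago2 and more mRNA in the cells cannot be told apart.

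The added oligo has the mature sequence below, shown because it is the only designed difference between the transfections. Capitals mark the seed, bases 2 to 8, which is the stretch that mainly decides which mRNAs a microRNA pairs with.

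hsa-miR-941: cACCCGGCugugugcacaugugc

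RefSeq (GRCh38.p14) lists 5 copies of this 23-base sequence on the plus strand of chromosome 20, all inside the span of DNAJC5. The first lies at chr20:63919495-63919517 and the last at chr20:63919914-63919936. None of the other mature microRNA names in that table has the same seed. An mRNA site that pairs with the whole seed reads GCCGGGU. Transcript sequences of the 10 genes were not analysed here, so sites for miR-941 in them were not searched.

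The values below were deposited by the authors for each probe set and are read as log2. Array medians were 0.98 (miR-941) and 0.92 (control). A probe set counts as detected here if its mean over the arrays exceeds 0.92, which is the median of such means across the array without its control probe sets. The array names 11 genes known from HEK293, from which 293T was made, and 9 of them passed this level, among them the neurofilament gene NEFL (7.37 on the miR-941 array, 6.99 on the control array) and VIM (8.70 and 8.82). Of those 11 genes LHX1 and KRT8 did not pass. PAX2 passed only through the miR-941 array (1.23, against 0.86 on the control array). Of 14 markers of other cell types 6 passed the level, namely HBB, COL1A1, KRT5, PECAM1, VWF and GFAP. PTPRC, CD3E, CD14, ALB, COL3A1, INS, MYH6 and EPCAM did not. The brightest probe sets of VWF (1.39 on the miR-941 array, 0.66 on the control array) and GFAP (1.36 and 0.89) passed only through the miR-941 array. HBB (beta globin) passed it at 7.54 on the miR-941 array and 6.95 on the control array, on a probe set with the suffix _x_at, whose probes can bind related sequences. The 5' control probe set of the actin mRNA differed by -0.66 between the arrays (miR-941 minus control), its middle control by -0.37 and its 3' control by -0.04. For the GAPDH mRNA the 5', middle and 3' controls differed by -0.19, -0.07 and 0.05. The part of these values in the differences below was not tested.

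All 10 hedgehog genes rose above 0.92 on at least 1 probe set and can be judged in this sense, where 66.5% of all genes on the array did. Their brightest probe sets were above 0.92 on both arrays taken singly. Of the 26 probe sets, 15 passed and 11 did not. A stricter level, the 75th percentile of all probe sets (3.37), was passed by 5 of the 10, PTCH1, GAS1, KIF7, GLI2 and GLI3, where 40.9% of all genes passed it. The other 5, HHIP, SMO, IFT88, SUFU and GLI1, lie between these levels. Probe sets differ in how strongly they bind, so levels of different genes are not ranked.

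**Figure D1:**
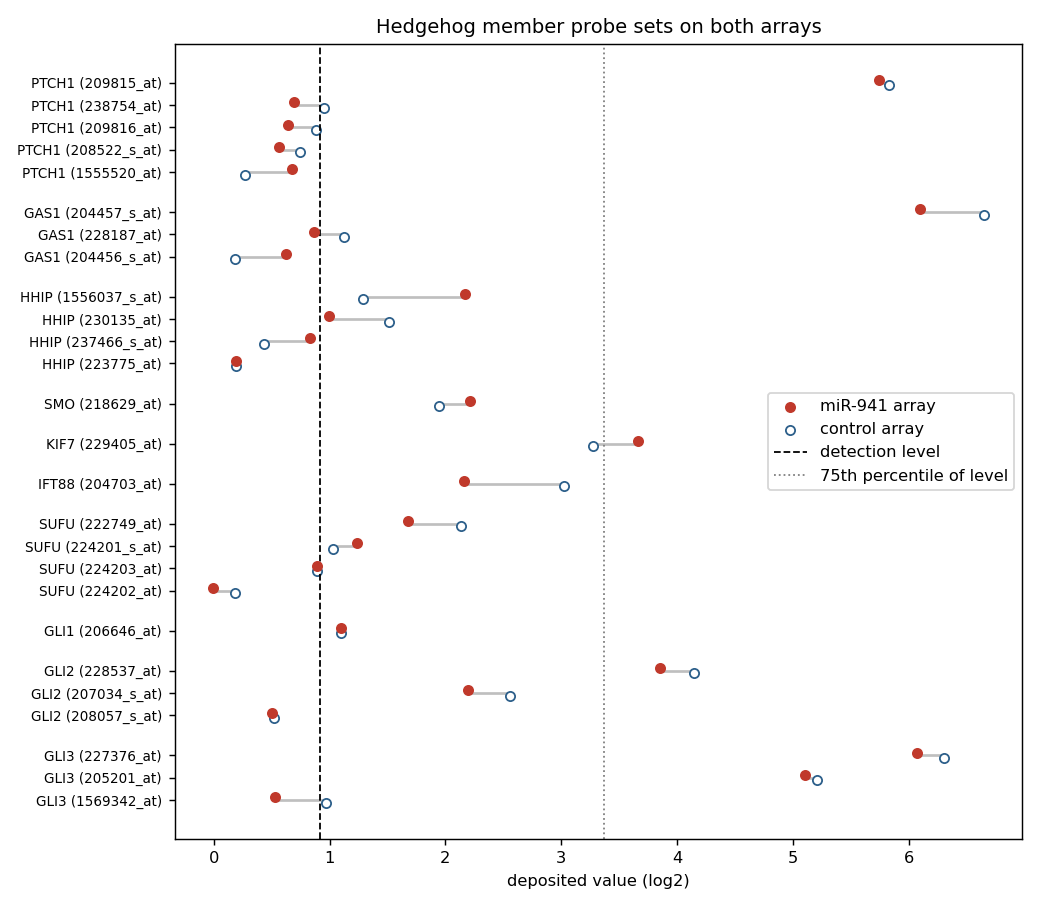
Deposited values (x axis, log2) of the 26 probe sets of the 10 hedgehog genes (rows), with filled points for the miR-941 array, open points for the control array, a dashed line at the detection level of 0.92 and a dotted line at the 75th percentile of 3.37. The widest gaps between the arrays are those of HHIP 1556037_s_at (0.88) and IFT88 (-0.86, miR-941 minus control). The probe set of GLI1, HHIP 223775_at and SUFU 224203_at each have the same value on both arrays.

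On the brightest probe set, HHIP, KIF7 and SMO, 3 of the 10, had higher values on the miR-941 array, 6 had lower ones (PTCH1, GAS1, IFT88, SUFU, GLI2 and GLI3), and GLI1 had equal ones. Over all 13150 detected genes 46.3% were higher, 42.4% lower and 11.3% equal. The median log2 difference, miR-941 minus control, was -0.16 over the 10 genes and 0.00 over all detected genes. None of the 10 differed by 2-fold or more, a size reached by 0.517% of detected genes. At 1.5-fold there were 2, HHIP higher and IFT88 lower, where 5.82% of detected genes passed that size, 2.94% higher and 2.87% lower. Both lie at levels where such differences were more frequent: 9.52% of genes with a mean level between 0.92 and 2 passed 1.5-fold, and 11% of those between 2 and 4, against 2.15% above 4.

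Detected probe sets of the same gene had a pooled SD of their differences of 0.31 (log2) over 6106 genes. They share a hybridisation and are not replicates. This SD thus describes spread between probe sets, and variation between repeated arrays is not in it. The differences of PTCH1, SMO, GLI1, GLI2 and GLI3 were smaller than this SD. Those of KIF7, SUFU, GAS1, IFT88 and HHIP were larger.

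PTCH1, the receptor that binds the ligands and restrains SMO, read 5.75 on the miR-941 array and 5.83 on the control array on probe set 209815_at, a difference of -0.08. The arrays were thus nearly level for the only PTCH1 probe set that passed the detection level. Its other 4 probe sets read between 0.27 and 0.95 on both arrays, with 3 lower on the miR-941 array and 1 higher, and cannot be judged.

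GAS1, a membrane-anchored co-receptor that helps ligand reach PTCH1, read 6.10 on the miR-941 array and 6.65 on the control array on 204457_s_at. This is a difference of -0.55, or 1.47-fold lower, and the largest among the 5 genes above the 75th percentile. Among all genes with a mean level above 4, the central 90% of differences ran from -0.42 to 0.37, and GAS1 lies below it. Several other pathway genes of that level also lie below it, among them CDON, OFD1 and DYRK2, and KIFAP3 lies above it. A second detected GAS1 probe set, 228187_at, was also lower, at 0.87 on the miR-941 array and 1.12 on the control array (-0.26). It passed the detection level only through the control array. That smaller value is all that remains for GAS1 when probe sets with the suffix _s_at, whose probes match several transcripts, are left out. The remaining probe set was below the detection level and went the other way (0.44).

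HHIP, a surface protein that binds and sequesters the ligands, read 2.17 on the miR-941 array and 1.29 on the control array on 1556037_s_at. This difference of 0.88, or 1.84-fold higher, was the highest of the 10 genes. It lies above the central 90% of genes with a mean level between 0.92 and 2 (-0.53 to 0.63). The other detected HHIP probe set, 230135_at, read 1.00 on the miR-941 array and 1.52 on the control array, a difference of -0.52. The detected HHIP probe sets thus differed in opposite directions, their mean was 0.18, and without _s_at probe sets the gene had -0.52. Of the HHIP probe sets below the detection level 1 was higher and 1 equal.

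SMO, the membrane protein that passes the signal on, has 1 probe set. It read 2.21 on the miR-941 array and 1.95 on the control array, a difference of 0.26, within the central 90% of genes with a mean level between 2 and 4 (-0.60 to 0.59).

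KIF7, a kinesin that organises the tip of the cilium and regulates the GLI proteins there, also has 1 probe set. It read 3.66 on the miR-941 array and 3.27 on the control array, a difference of 0.39 within the same central 90%. KIF7 was the only one of the 5 genes above the 75th percentile that was higher on the miR-941 array, the other 4 being lower. Of all 8086 genes above that level 47.8% were higher and 46.2% lower.

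IFT88, a subunit of the particle that carries cargo into the cilium and that the cilium needs for its assembly, read 2.16 on the miR-941 array and 3.03 on the control array. Its difference of -0.86, or 1.82-fold lower, was the lowest of the 10 genes and lies below the central 90% of genes with a mean level between 2 and 4. It rests on 1 probe set, 204703_at, so no other probe set can be set beside it.

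SUFU, which binds the GLI proteins and holds them inactive, read 1.68 on the miR-941 array and 2.13 on the control array on 222749_at, a difference of -0.46. Its other detected probe set, 224201_s_at, read 1.24 on the miR-941 array and 1.03 on the control array, a difference of 0.21. The mean over both was -0.13. The SUFU probe set just under the detection level, 224203_at, held 0.89 on both arrays. The remaining one, 224202_at, lay far below that level, at -0.004 on the miR-941 array and 0.19 on the control array (-0.19).

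GLI1, an activator whose own gene is switched on by the pathway, read 1.10 on the miR-941 array and 1.10 on the control array on its 1 probe set. Identical values are frequent on these arrays: 19.9% of the probe sets with 1 gene symbol held the same value on both, and 21.8% of those with a mean level between 0.92 and 2. The equal GLI1 values therefore do not show that its mRNA was recovered equally.

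GLI2, the main activator of the pathway, read 3.86 on the miR-941 array and 4.14 on the control array on 228537_at, a difference of -0.29. A second detected probe set, 207034_s_at, read 2.19 on the miR-941 array and 2.56 on the control array (-0.37). Both detected GLI2 probe sets were lower, and the third, below the detection level, had -0.02.

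GLI3, which serves mainly as the repressor of the pathway, read 6.07 on the miR-941 array and 6.30 on the control array on 227376_at, a difference of -0.24. Probe set 205201_at read 5.10 on the miR-941 array and 5.21 on the control array (-0.11), and both passed the 75th percentile. The third GLI3 probe set, below the detection level, had -0.44, so all 3 probe sets of GLI2 and all 3 of GLI3 were lower. Among the 2780 genes with 3 probe sets at any level, 7.55% had all of them lower. GAS1, which also has 3 probe sets, had 1 of them higher. The pattern of GLI2 and GLI3 rests in part on probe sets below the detection level, which cannot be judged. Each detected difference of GLI3, and that of GLI2 228537_at, was smaller than the SD between probe sets of a gene.

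**Figure D2:**
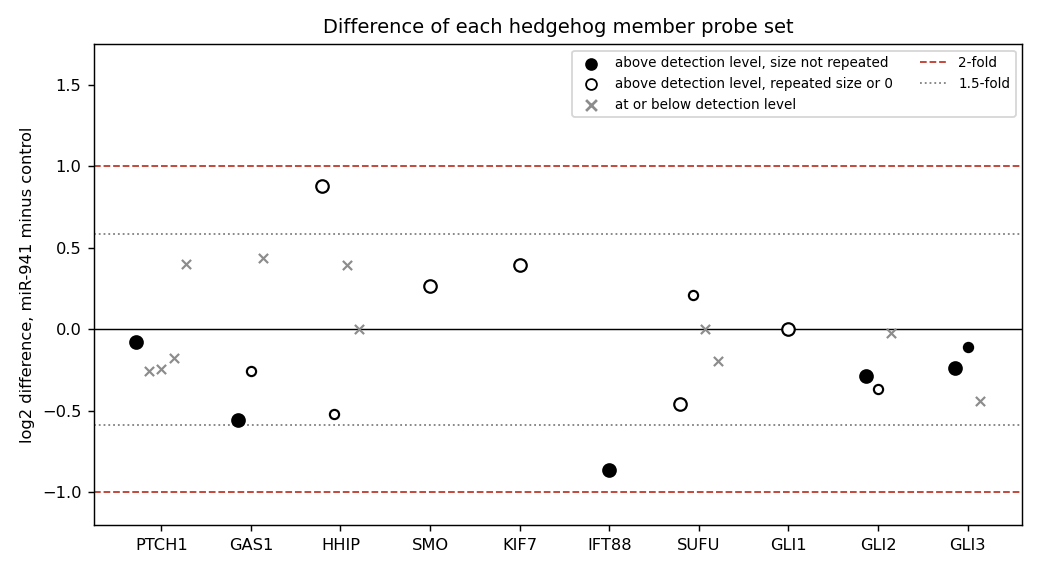
Log2 difference, miR-941 minus control (y axis), of each of the 26 probe sets, grouped by gene (x axis), with the largest symbol for each gene's brightest probe set, crosses for probe sets at or below the detection level, and open circles for detected ones whose difference is 0 or of a size that 10 or more other probe sets share. No point reaches the dashed 2-fold lines, the detected points of HHIP and SUFU lie on both sides of 0, and all points of GLI2 and GLI3 lie below it.

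Of the 5 genes with 2 detected probe sets, 3 had both lower (GAS1, GLI2 and GLI3), and HHIP and SUFU had 1 higher and 1 lower. GAS1 counts here only through 228187_at, which had to be lower since it passed the detection level only through the control array. Of the 4 genes with 2 probe sets above that level on both arrays, 2 had both lower. Among all 3528 genes with 2 detected probe sets, both went the same way in 44% and both were lower in 21.7%, with no such restriction. The 15 detected hedgehog probe sets had a median difference of -0.24, and 10 of them were lower, 4 higher and 1 equal. Over all 23317 detected probe sets with 1 symbol the median was 0.00, with 43.4% lower, 44.2% higher and 12.4% equal. Of the 14 hedgehog probe sets above the detection level on both arrays 9 were lower, and 43.4% of all such probe sets were.

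Sizes of differences often recurred across probe sets, and why they did was not tested. Of the 15 detected hedgehog probe sets, 9 had a difference that was 0 or matched that of 10 or more other probe sets in size to 6 decimals, as did 61% of all detected probe sets with 1 symbol. These 9 include all detected probe sets of HHIP, SMO, KIF7, SUFU and GLI1, and thus every gene of the 10 that was higher on the miR-941 array. The 0.88 of HHIP was shared with 24 other probe sets, the 0.39 of KIF7 with 46 and the 0.26 of SMO with 411. The remaining 6, of PTCH1, GAS1, IFT88, GLI2 and GLI3, were all lower, with a median over these 5 genes of -0.29. Of the 6649 genes that keep a detected probe set under this restriction, 48.1% were lower and 51.9% higher, with a median of 0.02. The restriction was chosen after the values were seen, so this is a description of 5 genes.

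**Figure D3:**
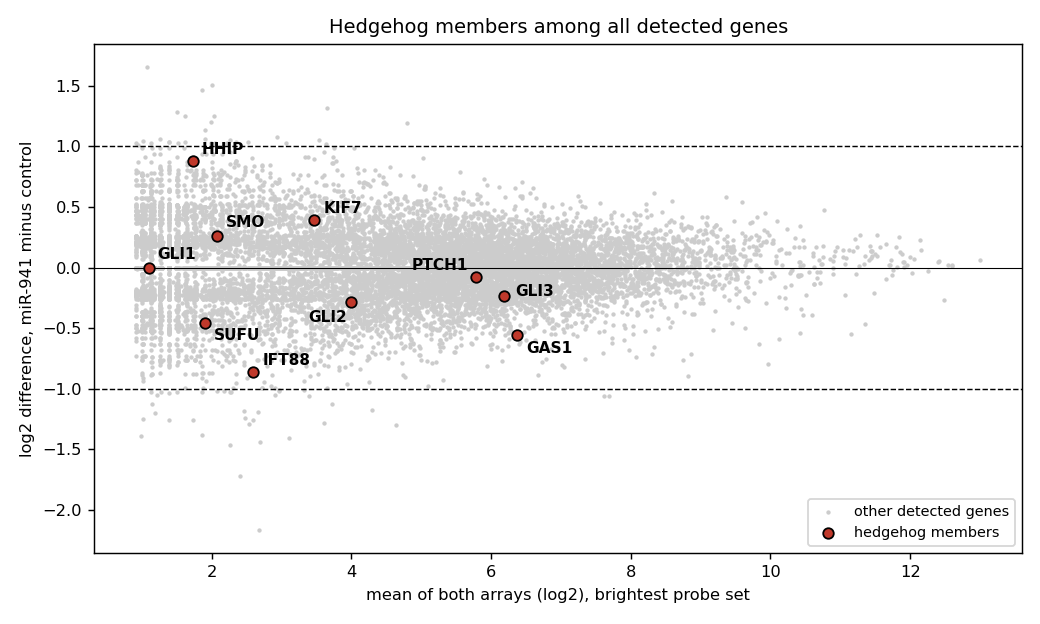
Log2 difference, miR-941 minus control (y axis), against the mean of both arrays (x axis, log2) for the brightest probe set of each of the 13150 detected genes (grey), with the 10 hedgehog genes in red and dashed lines at 2-fold. IFT88 (-0.86) and HHIP (0.88) lie at levels where differences spread widely, GAS1 (-0.55) lies at the lower edge of the genes of its level, and the grey points form bands at low levels where values repeat.

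Other genes of the pathway were taken from a list set by role. Of 71 listed genes 66 were named on the array and 60 detected, and of these 26 had higher and 31 lower values on the miR-941 array and 3 were equal (median difference -0.02). BCL2 was the only one past 2-fold, a size that 0.517% of all detected genes reached. At 1.5-fold there were 4 of 60, a share near the 5.82% of all detected genes.

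Of the ligands and the genes for their processing and release 4 of 7 were detected. The ligand gene SHH had 0.38 (2.09 on the miR-941 array, 1.71 on the control array). IHH, another ligand gene, had -0.44 (0.916 on the miR-941 array, just under the detection level of 0.918, and 1.36 on the control array), so it passed only through the control array, and its other detected probe set was equal on both. The release factor DISP1 had 0.26, and DISP2 held 1.39 on both arrays. All 4 lie below the 75th percentile of level. Of the 4 receptors and co-receptors that the array names, all were detected. CDON, a co-receptor like GAS1, had -0.52 on its brightest probe set (5.00 on the miR-941 array, 5.52 on the control array), with its other detected probe set higher. The co-receptor BOC had 0.29, with its other 2 detected probe sets lower, GPC3, which competes for ligand, had 0.27, and the endocytic receptor LRP2 had -0.17 on its brightest probe set. The other detected LRP2 probe set went the other way (0.47) and passed the detection level only through the miR-941 array.

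Of 22 detected genes of cilium trafficking, the group to which IFT88 and KIF7 are closest, 11 were lower, 9 higher and 2 equal, none passed 1.5-fold, and the median was -0.01. The kinesin adaptor KIFAP3 had 0.41 and IFT52, in the same particle as IFT88, 0.36 with both detected probe sets higher (6.16 on the miR-941 array and 5.79 on the control array on the brighter). IFT140, of the particle that carries cargo back, had -0.52 (0.87 on the miR-941 array, 1.39 on the control array) on a probe set that passed the detection level only through the control array, and -0.38 on its other detected one. The centriole gene OFD1 had -0.48. None of these 22 genes reached the size of the IFT88 difference. IFT88 has a mean level of 2.60, below the 75th percentile, which 18 of the 22 exceed. Of all detected genes with a mean level between 2 and 4, 11% passed 1.5-fold, against 2.15% above 4. How far level accounts for this contrast was not tested.

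Of 19 kinases, ligases and modulators 7 were higher and 12 lower (median -0.07). ARRB1, a beta-arrestin, had 0.91 on its brightest probe set (3.83 on the miR-941 array, 2.92 on the control array), with 4 of its 6 detected probe sets higher and a median of 0.13. PRKACA and PRKACB, catalytic subunits of the protein kinase A that phosphorylates GLI proteins, had 0.27 and -0.28, and DYRK2 had -0.49, with 3 of its 4 detected probe sets lower.

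Of 11 detected textbook GLI targets 6 were higher and 5 lower (median 0.01). On the brightest probe set 3 of the 11 passed 1.5-fold, 1 higher and 2 lower, where 5.82% of all detected genes did. Only 4 of the 11 exceed the 75th percentile of level, and such differences were more frequent at low levels. How far level accounts for this share was not tested. BCL2, an inhibitor of apoptosis, had -1.05 on its brightest probe set (2.38 on the miR-941 array, 3.43 on the control array), but its other 2 detected probe sets were higher and the median was 0.18. SNAI1 had -0.74 (1.34 on the miR-941 array, 2.07 on the control array), IGFBP6 0.68 (1.61 and 0.92) and NKX2-2 0.23, on 1 detected probe set each.

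**Figure D4:**
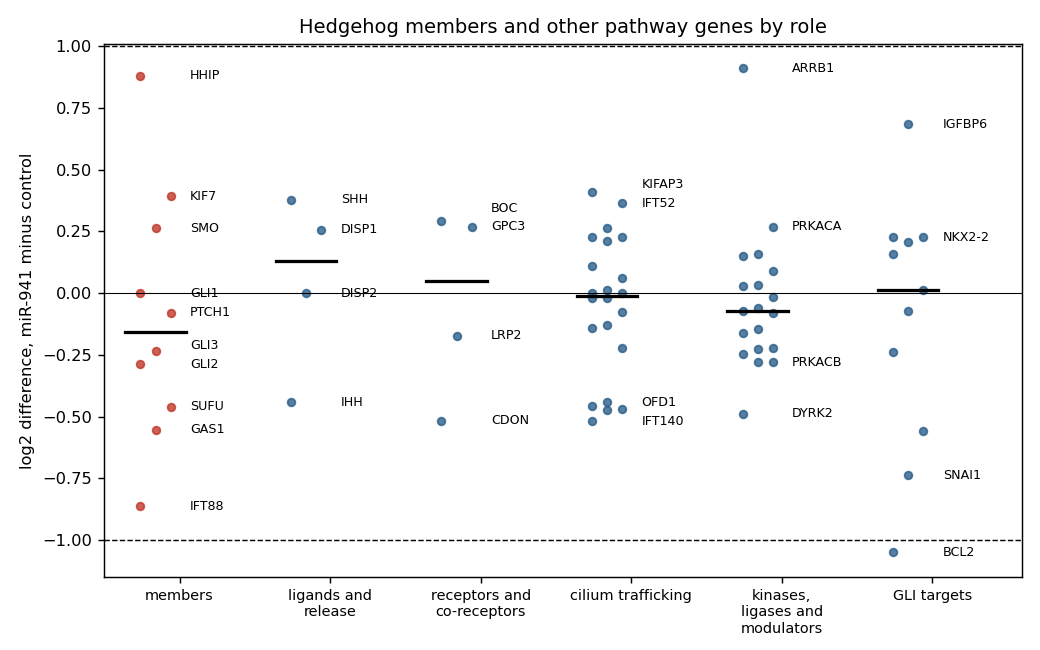
Log2 difference, miR-941 minus control (y axis), on the brightest probe set of the 10 hedgehog genes (red) and of the 60 other detected pathway genes by role (blue), with a bar at each group's median and dashed lines at 2-fold. The medians lie between -0.16 (the 10 genes) and 0.13 (ligands and release), and BCL2 (-1.05) is the only point past 2-fold.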

How the data were processed

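The deposited log2 expression values, 1 per probe set and array, were made by the authors with RMA in R from Affymetrix arrays of the U133 Plus series, per the labels and the series' design text. The submitters' processing notes also name affy and MAS5, with no role or version. Neither scale, centring nor the background correction is stated in the sources used here, and low values go below 0 (to -0.31) and repeat across probe sets, so which form of RMA gave them stays unknown. The values reached 13.7, above the natural logarithm of a 16-bit reading (11.1), which leaves log2 if they are logarithms of brightness. Depth does not apply to arrays, and 1 array per group limits the precision.

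Of 54675 probe sets, 41097 had 1 symbol in the platform annotation, and 41043 of these were matched to RefSeq (GRCh38.p14) symbols through the Entrez identifier. The values carry no genome build, so gene coordinates are not printed. A gene was represented by its probe set with the highest mean over both arrays. Every probe set of the 10 genes is described, and of the other pathway genes the 2 highest and 2 lowest detected differences of each role. Genes of like pattern are not named, since each gene has a single difference. No test was run. The members, lists and rules were chosen with earlier results of these data known. The calculation was checked on simulated differences. Python 3.11.15, pandas 2.3.3 and, for the loess trend (span 0.3), statsmodels 0.14.6 were used. Alternatives were the mean over detected probe sets, leaving out _x_at and _s_at probe sets, other level filters, centring, the loess trend removed, low values set to the detection level, a 1.5-fold threshold and, added after seeing the data, leaving out differences of a repeated size.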

Additional observations from a re-analysis of the deposited data

How the results depend on the processing

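No paired analysis was possible because only 1 array stands on each side, and leaving one out would end the comparison. All 10 genes were detected under the median filter, also with both arrays required to pass singly and without _x_at and _s_at probe sets, and 5 at the 75th percentile. None differed 2-fold under the main setting or the other alternatives run, and 2 did at the 1.5-fold threshold. The number higher was 3, against 1 at the 75th percentile of level and 0 without differences of a repeated size, the alternative added after seeing the data. Both of these test fewer genes. Without _x_at and _s_at probe sets it was 2, with all 10 genes still detected. The median difference stayed between -0.29 and -0.10 over 8 alternatives. The number lower was 6 of 10 genes under the main setting and 6 or 7 of 10 under most alternatives. It was 4 of 5 genes at the 75th percentile of level and 5 of 5 without differences of a repeated size. HHIP moved from 0.88 to 0.18 averaged over probe sets and to -0.52 without _x_at and _s_at probe sets, and SUFU from -0.46 to -0.13 averaged. The other pathway genes past 2-fold numbered 1, against 0 averaged over probe sets, 0 at the 75th percentile and 4 at 1.5-fold. Centring each array on its median put GLI1 at -0.06 and changed no other direction among the 10 genes, while among the 60 other pathway genes 4 higher ones and the 3 equal ones became lower.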

Other observations

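Several hedgehog probe sets have a size of difference that repeats across the array. The 0.21 by which SUFU 224201_s_at was higher on the miR-941 array was the size of difference of 3000 probe sets, 1859 of them higher and 1141 lower. The 0.37 by which GLI2 207034_s_at differed was shared by 1261, 840 higher and 421 lower, although that probe set read above 2 on both arrays. Single values repeat as well: the control value of 0.19 that GAS1 204456_s_at and SUFU 224202_at have in common was held by 1010 probe sets on the control array. The GLI1 value of 1.10 was held by 4 probe sets on the miR-941 array and by 8 on the control array. By contrast, no other probe set had the size of difference of GAS1 204457_s_at, 3 others had that of IFT88, 4 that of PTCH1 209815_at and 2 that of GLI3 227376_at. The cause of the repeats was not tested.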
